A study of Mus musculus with 36 samples.

Results

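The ribosome-bound RNA of 8 genes was followed in the mouse cortex after a forced swim: the neurotrophin Bdnf and its receptor Ntrk2, the granins Vgf, Scg2, Scg3, Chga and Chgb, and the activin subunit Inhba. These genes make secreted factors of neurons, or the receptor of one, and are known to be regulated by neuronal activity. The 8 rows were taken by symbol from the 55470 rows of each of the 36 count tables, and all 8 passed the low-count filter, which left 11341 genes. The mice carried HA-Rpl22(f/+) and Camk2a-Cre(+/-) on the C57BL6JL strain, so that Cre under the Camk2a promoter switched on an HA-tagged Rpl22 in pyramidal neurons, and ribosomes with their RNA were pulled down by the tag. The protocol for the pulldown names HA-Rpl22(f/f) in place of HA-Rpl22(f/+). Shank3(∆C/+) mice, called Shank3 here, are heterozygous for a mutated Shank3, which encodes a scaffold of excitatory synapses, and their Shank3(+/+) littermates are called WT. Mice were killed 1 h or 4 h after swimming in water at 25 °C, for 5 min by one label and 6 min by the protocol, or stayed naive in their home cages. Cohort 1 held 5 Shank3 and 6 WT libraries at 1 h, with 3 naive Shank3 and 3 naive WT libraries. Cohort 2 held 6 Shank3 and 5 WT libraries at 4 h, with 4 naive Shank3 and 4 naive WT libraries, numbered from 4 to 7. Each swim group was set against the naive mice of its own genotype and cohort. Ages, and the animal behind each library, are not stated, so the p-values measure the spread between libraries.

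Bdnf is released from neurons when they are active and binds TrkB, the receptor tyrosine kinase that Ntrk2 encodes, and this signal is known for its part in synaptic plasticity in the cortex. Granins are acidic proteins of dense-core vesicles, the organelles that store and release neuropeptides and growth factors. They help to build these vesicles, and several are cut into signalling peptides. Inhba encodes the beta A subunit, pairs of which form activin A, a ligand of the TGF-beta family. The transcription factor CREB binds the sequence TGACGTCA, the cyclic AMP response element, and its core TGACG, and such sites are known in the promoters of several activity-regulated genes.

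The 250 bases before the transcription start were read from the RefSeq promoter table of GRCm38.p6, the patch release of the mm10 build, for 7 of the 8 genes in 13 windows. Vgf had no entry. Windows that hold the core TGACG are shown because they hold the element that CREB is known to bind. Letters in capitals mark the core on either strand, and matches that run into each other form the full element.

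Bdnf promoter, chr2:109692186-109692435, plus strand: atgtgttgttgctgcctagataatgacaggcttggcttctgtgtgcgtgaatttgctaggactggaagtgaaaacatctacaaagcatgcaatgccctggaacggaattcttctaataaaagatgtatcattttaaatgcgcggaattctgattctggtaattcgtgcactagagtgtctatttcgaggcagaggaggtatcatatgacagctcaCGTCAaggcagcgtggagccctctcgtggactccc
Scg2 promoter, chr1:79440027-79440276, minus strand: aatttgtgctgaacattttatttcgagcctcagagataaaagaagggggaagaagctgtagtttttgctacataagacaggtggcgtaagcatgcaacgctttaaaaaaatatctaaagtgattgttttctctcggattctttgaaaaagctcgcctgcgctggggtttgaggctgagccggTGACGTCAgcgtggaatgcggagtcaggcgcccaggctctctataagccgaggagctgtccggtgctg
Scg3 promoter, chr9:75684057-75684306, minus strand: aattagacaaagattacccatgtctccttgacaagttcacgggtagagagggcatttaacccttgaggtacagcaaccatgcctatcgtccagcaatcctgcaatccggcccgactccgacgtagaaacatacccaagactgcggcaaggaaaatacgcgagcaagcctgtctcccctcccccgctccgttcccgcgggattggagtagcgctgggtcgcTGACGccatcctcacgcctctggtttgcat
Chga promoter, chr12:102554691-102554940, plus strand: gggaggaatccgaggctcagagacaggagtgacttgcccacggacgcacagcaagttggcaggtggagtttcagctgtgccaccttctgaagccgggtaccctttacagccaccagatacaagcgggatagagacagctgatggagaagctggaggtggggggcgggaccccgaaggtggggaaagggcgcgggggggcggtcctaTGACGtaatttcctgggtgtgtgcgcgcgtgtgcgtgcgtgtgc
Chgb promoter, chr2:132781392-132781641, plus strand: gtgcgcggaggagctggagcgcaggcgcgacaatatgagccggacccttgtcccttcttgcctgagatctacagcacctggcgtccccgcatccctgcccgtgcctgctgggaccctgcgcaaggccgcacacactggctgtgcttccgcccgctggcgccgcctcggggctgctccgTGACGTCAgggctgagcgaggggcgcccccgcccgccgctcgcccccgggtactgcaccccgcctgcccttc

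The full element TGACGTCA stood in the windows of Scg2 and Chgb, beginning at base -68 of Scg2 and at base -72 of Chgb, counted from the transcription start. It is its own reverse complement, and each copy also counts as a match of the core on both strands. TGACG on either strand stood in 5 of the 13 windows (38.5%), against 17.8% of the 32851 windows of the same length in the table, and TGACGTCA in 2 (15.4%), against 1.55% of them. Of the 7 Bdnf windows, 1 held the core, and the single windows of Ntrk2 and Inhba held none. At 4 h, with counts scaled by a trimmed mean over all genes (TMM), Scg3 and Bdnf, which hold the core, and Ntrk2, which has none in its window, had the highest fold changes of the 8, while Chgb, with the full element, was next to the lowest. With library totals all 5 genes with the core stood above 0 at 4 h in both genotypes. So did Ntrk2 and Inhba, whose windows hold no core. The median of all genes on that scale was 1.17 in Shank3 and 0.98 in WT mice, and Scg2, Chga and Chgb lay below it in both. These are descriptions with no test.

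Library totals ran from 0.884 to 3.52 M counts. Ribosomal RNA rows held over 10% of the counts in 3 libraries, later called high in ribosomal RNA, and at most 6.42% in the others. The 3 were naive Shank3 replicates 6 (13.58%) and 7 (38.69%) of cohort 2 and WT replicate 5 at 1 h (10.59%). Both naive ones are among the 4 libraries that Shank3 mice at 4 h were set against, and library totals include such counts. Rows with an exon opposite an exon of another gene held 75.7% of all counts, and in pairs of an antisense and a coding row the coding rows held 10.7% to 33.1% of the counts of a library, a percent called the pair share. The pair share was 12.6% to 16.8% in Shank3 mice at 1 h, against 10.8% to 11.9% in naive mice, and 11.45% to 16.99% in WT mice at 1 h, against 10.65% to 11.02%. At 4 h it was 17.5% to 33.1% in Shank3 mice, against 11.85% to 14.98%, and 17.0% to 31.7% in WT mice, against 11.75% to 14.86%, and in all 4 comparisons every swim library lay above the naive ones. The kit keeps the strand, but the strand setting of the counting is not stated. Counting the other strand would leave residual counts on a row with no gene opposite, and 7 of the 8 genes are such rows, so their levels are uncertain and this cannot be told apart from true levels. The Shank3 row averaged 11.01 to 22.2 CPM (counts scaled to library size) in the 4 Shank3 groups and 6.27 to 12.2 CPM in the 4 WT groups. That row covers the whole gene and the missing stretch of the mutated copy was not given, so it does not check the genotype. Camk2a, which marks pyramidal neurons, averaged 573 to 1702 CPM over the groups. Gad1, a marker of inhibitory interneurons, averaged 1.29 to 14.6 CPM, and Gh, Prl and Cga, which mark pituitary cells, had 0 counts in every group. Pomc, another marker on the pituitary list, had some counts in every group but did not pass the low-count filter.

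Scaling sets the zero point of every fold change that follows. CPM is taken after TMM scaling, which assumes that most genes did not change, and the median log2 fold change of all 11341 genes under TMM was 0.09 in Shank3 and 0.24 in WT mice at 1 h, and 0.22 in Shank3 and 0.23 in WT mice at 4 h. With plain library totals the median moved to 0.57 in Shank3 and 0.85 in WT mice at 1 h, and to 1.17 in Shank3 and 0.98 in WT mice at 4 h. With TMM factors from rows with no gene opposite it moved to -0.15 in Shank3 and -0.17 in WT mice at 1 h, and to -0.27 in Shank3 and -0.23 in WT mice at 4 h. The distance of a gene from that median moved less, and for Vgf at 4 h it lay between -1.21 and -1.09 in Shank3 and between -1.28 and -1.25 in WT mice over these scalings. They differ only in the factor that scales each library, which moves all genes nearly alike, so a steady distance is built in. With the pair share as a term in the fit, the distance of Vgf was -0.82 in Shank3 and -0.97 in WT mice at 4 h. Changes are therefore also given relative to the median of all genes.

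Per kilobase of exon, Chgb stood highest of the 8, with a mean of 167 CPM per kb over the 36 libraries. Scg2 followed with 26.7 and Vgf with 26.3 CPM per kb, then Chga with 11.3, Scg3 with 7.22, Bdnf with 2.08, Ntrk2 with 1.99 and Inhba with 0.764 CPM per kb. Scg2 and Vgf, and likewise Bdnf and Ntrk2, differed by less than the spread of either gene between libraries. In counts, Chgb held 25400 over all libraries with 293 to 1440 per library, and Inhba held 307 with 1 to 31 per library. Scg2 held 4405, Vgf 4220, Ntrk2 2815, Chga 2043, Scg3 1393 and Bdnf 921. For Bdnf, Scg3 and Inhba the naive libraries of cohort 1 held 16 counts or fewer each, which limits what can be detected for them.

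**Figure D1:**
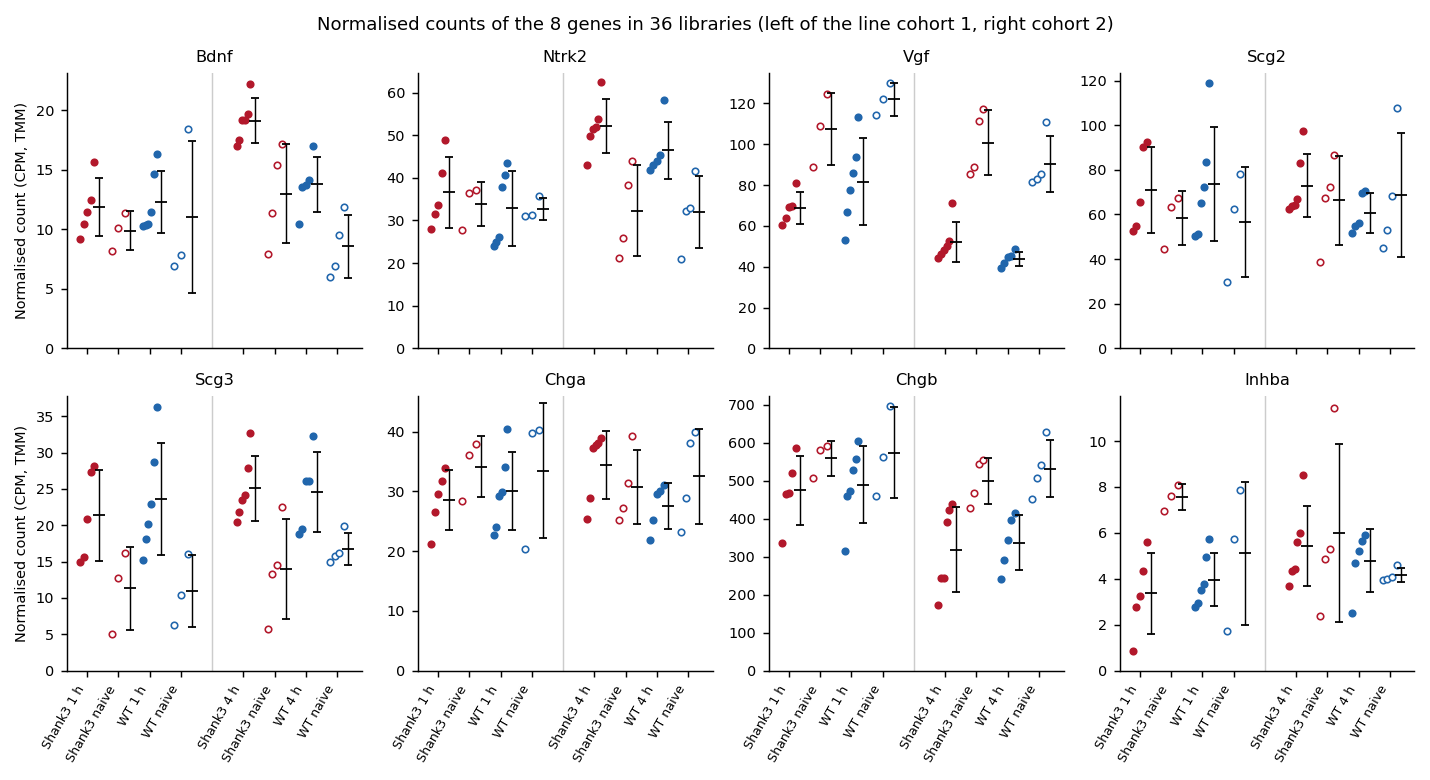
Normalised counts of the 8 genes in each library, in CPM after TMM scaling on axes that start at 0. Filled points are swim libraries, open points naive libraries, red Shank3 and blue WT, and the black bars give the mean ± SD of a group. Vgf lies lower in swim than in naive libraries without overlap in all 4 comparisons on this scale, and Inhba reaches at most 11.5 CPM.

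At 4 h, Vgf and Chgb were lower and Bdnf and Ntrk2 higher than in naive mice of both genotypes on the TMM scale, and Scg3 was higher in Shank3 mice. With library totals Vgf was near 0 and Chgb above 0. The rises of Bdnf, Ntrk2 and Scg3 passed with library totals. None of them passed with TMM on rows with no gene opposite or with the pair share as a term. The test called 5 of the 8 genes (62.5%) in Shank3 mice at 4 h, 3 higher and 2 lower, against 62.1% of all genes, 32.7% higher and 29.4% lower. It called 4 of 8 (50%) in WT mice at 4 h, 2 higher and 2 lower, against 56% of all genes, 29% higher and 26.9% lower. At 1 h it called 1 of 8 (12.5%) in Shank3 mice, lower, against 12.2% of all genes, 4.99% higher and 7.25% lower. For WT mice at 1 h it called 2 of 8 (25%), 1 higher and 1 lower, against 34.2% of all genes, 16.9% higher and 17.3% lower. The shares called lie near those of all genes, so the number of calls is not particular to these 8 genes. The test throughout is edgeR's quasi-likelihood test with Benjamini-Hochberg adjustment over all genes.

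**Figure D2:**
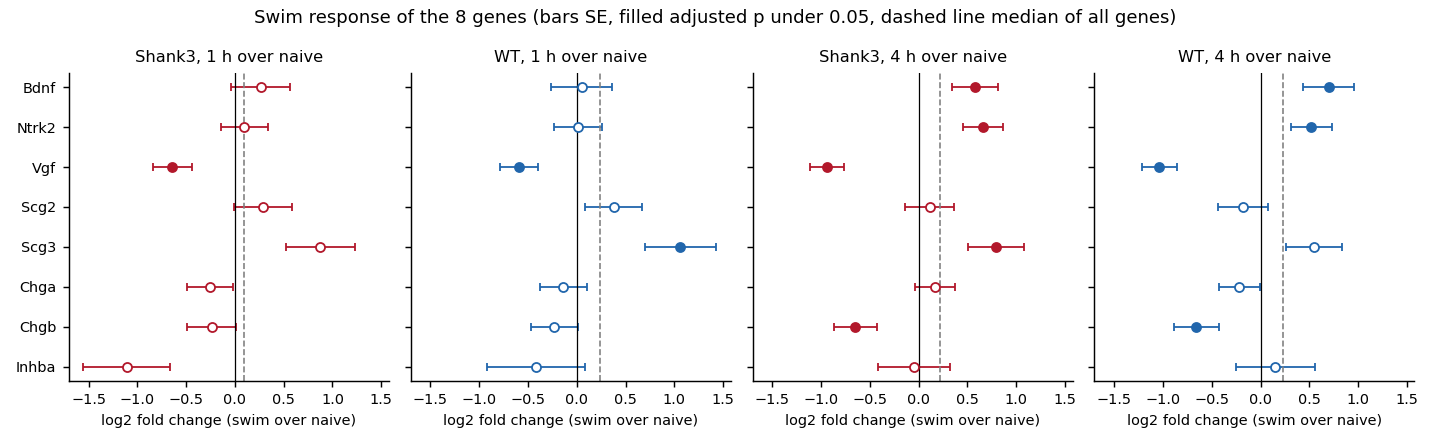
Log2 fold change of swim over naive for the 8 genes in the 4 comparisons under TMM, with the SE as bars. Filled points passed an adjusted p of 0.05, and the dashed line is the median of all genes. Vgf is the one gene called in all 4 panels, and Scg3, Bdnf and Ntrk2 lie right of the dashed line at 4 h. With library totals in place of TMM, Vgf at 4 h would stand at 0.082 in Shank3 and -0.26 in WT mice.

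Vgf encodes a precursor of neuropeptides that nerve growth factor and neuronal activity are known to induce. It had 44.2, 49.2 and 71.2 CPM as its lowest, median and highest values in Shank3 mice at 4 h, against 85.5, 88.7, 111 and 117 CPM in naive Shank3 mice. In WT mice at 4 h it had 39.4, 41.9, 44.9, 45.3 and 48.4 CPM, against 81.7, 83.0, 85.6 and 111 CPM in naive WT mice. Every 4 h library lay below every naive library of its genotype, as 19.8% of all genes did in Shank3 and 19.3% in WT mice. The log2 fold change was -0.94 ± 0.174 (SE) in Shank3 mice (adjusted p = 2.71e-05) and -1.04 ± 0.183 in WT mice (adjusted p = 2.45e-05), or -1.16 and -1.26 relative to the median of all genes. Both calls held without any single library, with adjusted p of at most 0.000419. With library totals the values were 0.082 (adjusted p = 0.691) in Shank3 and -0.26 (adjusted p = 0.212) in WT mice, and with the pair share as a term they were -0.76 (adjusted p = 0.0866) and -0.90 (adjusted p = 0.00338).

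Vgf was already lower at 1 h. The Shank3 libraries had 60.7, 63.9, 69.2, 69.9 and 81.1 CPM at 1 h, against 89.0, 109 and 124 CPM in naive mice. The WT libraries had a lowest, median and highest value of 53.0, 81.8 and 113 CPM at 1 h, against 114, 122 and 130.3 CPM in naive mice. Neither pair of groups overlapped, and the same fall without overlap was seen in 16.2% of all genes in Shank3 and 13.9% in WT mice. The log2 fold change was -0.64 ± 0.198 in Shank3 (adjusted p = 0.0341) and -0.60 ± 0.193 in WT mice (adjusted p = 0.0176), but -0.15 and -0.03 with library totals. The Shank3 call was lost without naive replicate 2 (-0.51, adjusted p = 0.215), naive replicate 3 (adjusted p = 0.0905), 1 h replicate 2 (adjusted p = 0.0598) or 1 h replicate 3 (adjusted p = 0.0927). The WT call was lost without naive replicate 2 (adjusted p = 0.0533) or naive replicate 3 (adjusted p = 0.0729). Without a low-count filter both calls were lost (adjusted p = 0.1651 in Shank3 and 0.1647 in WT mice). They were also lost with a replicate block (adjusted p = 0.0798 and 0.0508).

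Chgb encodes chromogranin B, a core protein of dense-core vesicles and the most abundant granin here. It had a lowest, median and highest value of 174, 318 and 438 CPM in Shank3 mice at 4 h, against 429, 468, 544 and 554 CPM in naive mice, and the highest 4 h library exceeded the lowest naive one. In WT mice at 4 h it had 240, 292, 345, 396 and 414 CPM, against 451, 508, 541 and 629.9 CPM in naive mice, with no overlap. The log2 fold change was -0.65 ± 0.220 in Shank3 (adjusted p = 0.0111) and -0.66 ± 0.230 in WT mice (adjusted p = 0.0149), or -0.87 and -0.88 relative to the median of all genes, and it turned to 0.24 and 0.070 with library totals and to 0.13 and 0.043 with the pair share as a term. The WT call was lost without naive replicate 7 (adjusted p = 0.0508), without a low-count filter (-0.55, adjusted p = 0.0604) or with a replicate block (-0.64, adjusted p = 0.0519). Over the 36 libraries log2 CPM of Chgb had a Pearson r of -0.876 with the pair share, and of -0.717 after the group means were taken out, which describes libraries that share this scaling. At 1 h Chgb averaged 475 ± 91.8 CPM (SD, n = 5) in Shank3 mice, against 559.5 ± 46.3 CPM (n = 3) in naive mice, and 489.6 ± 101 CPM (n = 6) in WT mice, against 574 ± 120 CPM (n = 3), and neither difference passed the test (-0.24 ± 0.250 and -0.23 ± 0.242 on the log2 scale). 

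Scg3 encodes secretogranin III, which binds chromogranin A and sorts it to vesicle membranes. It had a lowest, median and highest value of 20.5, 23.8 and 32.7 CPM in Shank3 mice at 4 h, against 5.73, 13.2, 14.6 and 22.6 CPM in naive mice. In WT mice at 4 h it had 18.8, 19.5, 26.1, 26.1 and 32.3 CPM, against 15.0, 15.8, 16.2 and 19.9 CPM in naive mice. One naive library reached into the range of the 4 h libraries in each genotype. The log2 fold change was 0.79 ± 0.284 in Shank3 mice (adjusted p = 0.016) and 0.55 ± 0.283 in WT mice, which did not pass (adjusted p = 0.0933). The Shank3 call was lost without naive replicate 7 (0.58, adjusted p = 0.0866) or without the libraries high in ribosomal RNA (0.82, adjusted p = 0.0525). It was also lost with TMM on rows with no gene opposite (0.31, adjusted p = 0.383) and with the pair share as a term (0.93, adjusted p = 0.180). The WT change passed with DESeq2 (0.63, adjusted p = 0.04765) and with an additive cohort term (0.59, adjusted p = 0.0487). With library totals Scg3 stood at 1.71 in Shank3 (adjusted p = 5.43e-05) and 1.31 in WT mice (adjusted p = 0.0014), and both passed.

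At 1 h Scg3 had 15.0, 15.6, 20.9, 27.4 and 28.2 CPM in Shank3 mice, against 5.06, 12.8 and 16.2 CPM in naive mice. WT libraries at 1 h had a lowest, median and highest value of 15.3, 21.5 and 36.3 CPM, against 6.28, 10.4 and 16.1 CPM in naive mice. Swim and naive libraries overlapped in both genotypes. On the log2 scale the change was 0.88 ± 0.352 in Shank3 mice, which did not pass (adjusted p = 0.0845), and 1.06 ± 0.367 in WT mice, which did (adjusted p = 0.0244). On the TMM scale the WT value was the one rise among the 8 genes that passed at 1 h, and it stood at 0.82 relative to the median of all genes. It was lost without naive replicate 1 (adjusted p = 0.0769), naive replicate 3 (0.80, adjusted p = 0.153), 1 h replicate 2 (adjusted p = 0.0573) or 1 h replicate 3 (adjusted p = 0.0629). It was also lost with limma (1.02, adjusted p = 0.05315) and with TMM on rows with no gene opposite (0.66, adjusted p = 0.188). The Shank3 change passed with an additive cohort term (0.95, adjusted p = 0.02275). With library totals Scg3 at 1 h passed in both genotypes, at 1.36 in Shank3 (adjusted p = 0.0267) and 1.69 in WT mice (adjusted p = 0.00276).

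Scg2 encodes secretogranin II, the precursor of secretoneurin, and Chga encodes chromogranin A, and neither passed the test in any swim comparison. Scg2 averaged 71.0 ± 19.2 CPM (n = 5) in Shank3 mice at 1 h, against 58.4 ± 12.2 CPM (n = 3), and 72.9 ± 14.2 CPM (n = 6) at 4 h, against 66.3 ± 20.1 CPM (n = 4). In WT mice it averaged 73.6 ± 25.5 CPM (n = 6) at 1 h, against 56.8 ± 24.7 CPM (n = 3), and 60.5 ± 8.95 CPM (n = 5) at 4 h, against 68.5 ± 27.8 CPM (n = 4). Swim and naive libraries overlapped in each pair. Chga averaged 28.6 ± 4.99 CPM in Shank3 mice at 1 h, against 34.1 ± 5.11 CPM, and 34.4 ± 5.75 CPM at 4 h, against 30.7 ± 6.20 CPM, with the same numbers of libraries. In WT mice it averaged 30.0 ± 6.53 CPM at 1 h, against 33.5 ± 11.3 CPM, and 27.5 ± 3.88 CPM at 4 h, against 32.5 ± 7.91 CPM. The log2 fold changes of both genes lay between -0.26 and 0.38, with SE between 0.204 and 0.295. Other scalings gave calls in both directions for Chga at 4 h, which was 1.14 in Shank3 mice with library totals (adjusted p = 0.000533) and -0.67 in WT mice with TMM on rows with no gene opposite (adjusted p = 0.00447). Scg2 was 0.99 in Shank3 mice at 4 h (adjusted p = 0.00599) and 1.02 in WT mice at 1 h (adjusted p = 0.0274) with library totals.

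The makeup of the granin counts needs no scaling, since each granin is set against the summed counts of all 5 in the same library. These percents are a description with no test. Scg3 made up 3.88% to 6.61% of the granin counts in Shank3 mice at 4 h, against 0.871% to 3.48% in naive mice, and 3.34% to 6.05% in WT mice at 4 h, against 2.11% to 2.39%. At 1 h it made up 2.36453% to 3.73% in Shank3 mice, against 0.627% to 2.36337%, and 2.35% to 4.60% in WT mice, against 0.971% to 1.69%. Every swim library thus lay above every naive library of its genotype and cohort in all 4 comparisons, although in Shank3 mice at 1 h the nearest libraries of the 2 groups were almost equal. Per summed granin count, 32.6% of all genes lay above without overlap in Shank3 and 38.8% in WT mice at 4 h, and 14.8% in Shank3 and 11.9% in WT mice did so at 1 h. Scg2 averaged 14.7% ± 2.26 in Shank3 mice at 4 h, against 9.27% ± 2.51 in naive mice, and 12.4% ± 1.71 in WT mice, against 9.06% ± 2.44, and these ranges overlapped. At 1 h Scg2 held 8.28% to 12.2% in Shank3 mice, against 6.50% to 8.22%, with no overlap. In WT mice it held 6.21% to 15.2%, against 4.61% to 8.19%. Chga averaged 7.28% ± 2.53 in Shank3 mice at 4 h, against 4.38% ± 1.17, and 5.69% ± 1.23 in WT mice, against 4.35% ± 0.603, with overlap. At 1 h Chga averaged 4.35% in Shank3 mice, against 4.41%, and 4.41% in WT mice, against 4.14%. Vgf averaged 10.6% ± 1.82 in Shank3 mice at 1 h, against 13.9% ± 1.13, with no overlap, as 8.91% of all genes lay below in this comparison, and 11.1% ± 4.56 at 4 h, against 14.3% ± 2.72, with overlap. In WT mice Vgf averaged 11.7% ± 2.36 at 1 h, against 15.8% ± 3.87, and 9.04% ± 1.12 at 4 h, against 12.4% ± 2.70. Chgb, which held most of the counts, averaged 61.8% ± 9.12 in Shank3 mice at 4 h, against 70.1% ± 2.64, and 67.9% ± 3.84 in WT mice, against 71.9% ± 0.308. Scg3 thus held a larger part of the granin counts after the swim. At 4 h the parts of Scg2 and Chga were also larger on average and those of Vgf and Chgb smaller, with groups that overlapped. The parts of a library add to a whole, so they do not move independently.

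**Figure D3:**
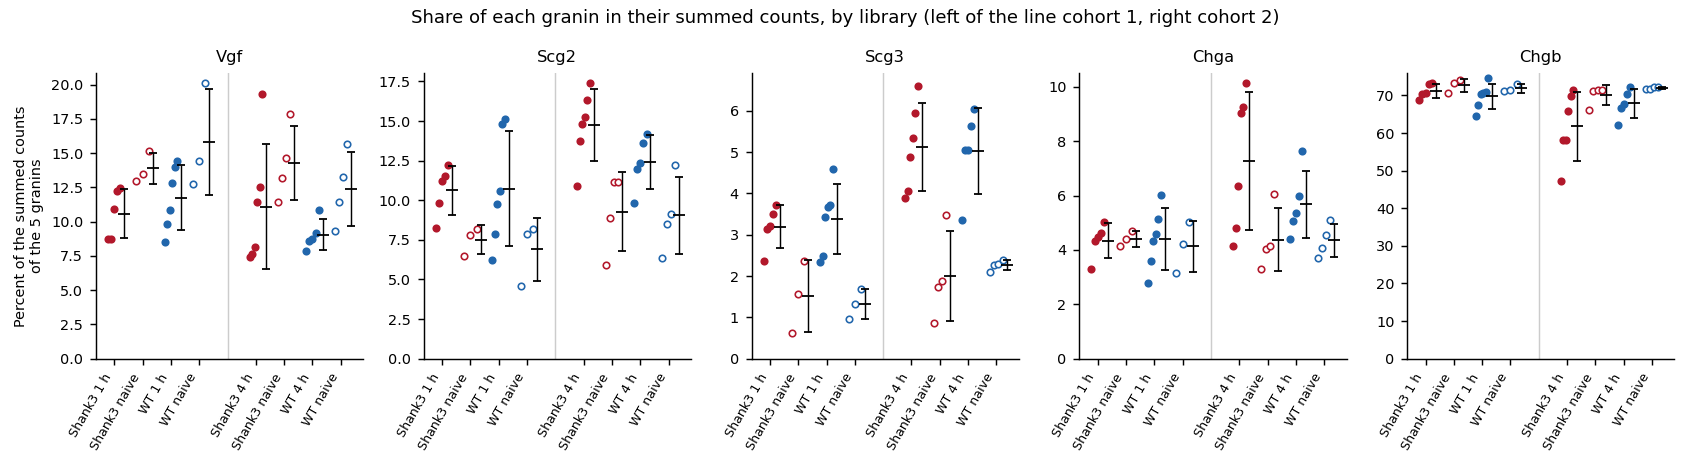
Percent of the summed counts of Vgf, Scg2, Scg3, Chga and Chgb that each granin held in each library, on axes that start at 0. Colours, fills and bars are as in the plot of normalised counts. The Scg3 points of the swim libraries lie above those of the naive libraries next to them in all 4 pairs, and Chgb falls to 47.2% in its lowest Shank3 library at 4 h.

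Bdnf, the neurotrophin, spans chr2:109674700-109727007 on the plus strand of mm10, and its 5′ end lies opposite the antisense row Gm45346 at chr2:109670908-109676591, with 896 overlapping exonic bases. Bdnf had a lowest, median and highest value of 17.0, 19.2 and 22.2 CPM in Shank3 mice at 4 h, against 7.95, 11.4, 15.4 and 17.2 CPM in naive mice. In WT mice at 4 h it had 10.4, 13.6, 13.7, 14.1 and 17.0 CPM, against 5.98, 6.92, 9.52 and 11.8 CPM in naive mice. In each genotype 1 naive library lay above the lowest 4 h library. On the log2 scale the change was 0.57 ± 0.236 in Shank3 (adjusted p = 0.0332) and 0.70 ± 0.262 in WT mice (adjusted p = 0.0226), or 0.35 and 0.47 relative to the median of all genes. Both calls were lost with TMM on rows with no gene opposite (0.078, adjusted p = 0.816, in Shank3 and 0.24, adjusted p = 0.485, in WT mice), with the pair share as a term (adjusted p = 0.384 and 0.164) and without a low-count filter (adjusted p = 0.0846 and 0.0584), and the WT call also with an additive cohort term (adjusted p = 0.0619). The Shank3 call was also lost with a replicate block (adjusted p = 0.05485). With library totals Bdnf stood at 1.56 in Shank3 and 1.47 in WT mice, and both passed. The Shank3 call was lost without naive replicate 4 (0.43, adjusted p = 0.141), naive replicate 5 (adjusted p = 0.117), or any of 4 h replicates 4, 5 and 6 (adjusted p = 0.0507, 0.0518 and 0.0615). The WT call was lost without naive replicate 4 (adjusted p = 0.0715), naive replicate 7 (adjusted p = 0.08815) or 4 h replicate 5 (adjusted p = 0.0799).

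Adding the counts of Gm45346 to those of Bdnf took the log2 fold change at 4 h to 0.06 in Shank3 (adjusted p = 0.81) and 0.08 in WT mice (adjusted p = 0.762), since the antisense row did not rise with Bdnf on the TMM scale. Gm45346 averaged 19.0 ± 6.19 CPM (n = 6) in Shank3 mice at 4 h, against 23.9 ± 4.92 CPM (n = 4), and 16.5 ± 5.15 CPM (n = 5) in WT mice, against 19.9 ± 6.14 CPM (n = 4). Bdnf held 51.3% ± 9.58 of the counts of both rows in Shank3 mice at 4 h, against 35.0% ± 8.13 in naive mice (p = 0.01905 in an exact permutation test, two-sided). For WT mice at 4 h the percent was 46.3% ± 11.2, against 31.3% ± 13.3 (exact permutation p = 0.127). At 1 h it held 38.2% ± 9.74 in Shank3 mice, against 25.1% ± 5.80 (exact permutation p = 0.0357, the smallest these groups allow), and 33.0% ± 12.5 in WT mice, against 22.9% ± 5.39 (exact permutation p = 0.119). Over the 8 comparisons of this percent between groups the smallest Benjamini-Hochberg adjusted p was 0.143, so none passed. The pair share of all antisense and coding pairs was higher in the same swim groups, and its part in the Bdnf percent was not tested.

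**Figure D4:**
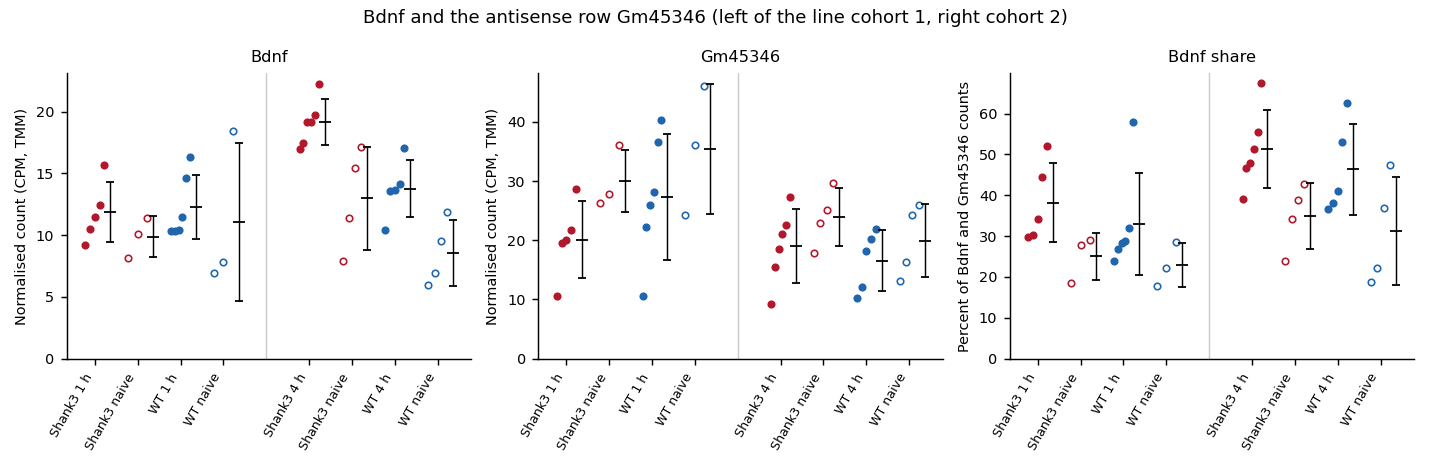
Bdnf and its antisense row Gm45346 in each library, in CPM after TMM scaling, and Bdnf as a percent of the counts of both rows, with colours, fills and bars as in the plot of normalised counts. At 4 h Bdnf averages 19.1 CPM in Shank3 and 13.8 CPM in WT mice, and the percent averages 51.3% and 46.3% against 35.0% and 31.3% in naive mice.

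At 1 h Bdnf was not called. It had 9.21, 10.5, 11.5, 12.5 and 15.7 CPM in Shank3 mice, against 8.14, 10.1 and 11.4 CPM in naive mice, and a lowest, median and highest value of 10.3, 10.9 and 16.4 CPM in WT mice, against 6.92, 7.85 and 18.4 CPM. On the log2 scale the change was 0.26 ± 0.305 in Shank3 and 0.05 ± 0.308 in WT mice, where the naive library with 18.4 CPM had 16 counts and the other two had 4 and 5.

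Ntrk2, the Bdnf receptor gene, spans chr13:58806569-59133970 and has no exon opposite it. It had a lowest, median and highest value of 43.0, 51.7 and 62.5 CPM in Shank3 mice at 4 h, against 21.2, 25.8, 38.4 and 43.9 CPM in naive mice. WT libraries at 4 h had 41.9, 43.0, 43.9, 45.3 and 58.2 CPM, against 21.1, 32.3, 32.9 and 41.5 CPM in naive mice. The WT groups did not overlap, as 21.3% of all genes did not in this direction, and the Shank3 groups overlapped by 1 library. On the log2 scale the change was 0.66 ± 0.207 in Shank3 (adjusted p = 0.00617) and 0.52 ± 0.212 in WT mice (adjusted p = 0.0353), or 0.44 and 0.29 relative to the median of all genes, and it was 0.17 and 0.06 with TMM on rows with no gene opposite and to 0.21 and 0.13 with the pair share as a term, none of which passed. With library totals Ntrk2 stood at 1.61 in Shank3 (adjusted p = 1.7e-05) and 1.29 in WT mice (adjusted p = 0.000446), and both passed. The Shank3 call held without any single library, and the WT call was lost without naive replicate 4 (adjusted p = 0.0686), 5 (0.38, adjusted p = 0.149) or 7 (adjusted p = 0.057) or 4 h replicate 5 (adjusted p = 0.125). The WT call was also lost with cohort 2 fitted alone (0.48, adjusted p = 0.05825) or with a replicate block (0.53, adjusted p = 0.0949). At 1 h Ntrk2 was within 0.10 of no change on the log2 scale, at 0.10 ± 0.242 in Shank3 and 0.01 ± 0.248 in WT mice.

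Ntrk2 is also expressed in astrocytes, and the summed level of astrocyte markers was higher on average at 4 h, though not every marker rose. Of 10 markers listed, all had a row and 4 passed the low-count filter. Of these 4, 2 were called higher at 4 h in each genotype, where 32.7% of all genes in Shank3 and 29% in WT mice were. With TMM on rows with no gene opposite 1 was called higher in each genotype, and with the pair share as a term 0. The summed level of the 10 markers was 88.6 to 107 CPM in Shank3 mice at 4 h, against 39.7 to 67.7 CPM in naive mice, and 89.8 to 114 CPM in WT mice, against 42.7 to 95.7 CPM. Slc1a2, a glutamate transporter, made up most of it, with means of 70.9 CPM in Shank3 and 77.1 CPM in WT mice at 4 h, against 38.5 and 43.3 CPM in naive mice. Slc1a3, another glutamate transporter of astrocytes, averaged 4.76 CPM in Shank3 and 3.32 CPM in WT mice at 4 h, against 1.82 and 2.28 CPM in naive mice. Gfap and Aqp4 averaged 1.49 and 0.739 CPM in Shank3 mice at 4 h, against 1.5001 and 0.594 CPM, and 1.48 and 0.647 CPM in WT mice, against 2.33 and 0.907 CPM. The summed level of 12 pyramidal neuron markers was also higher, at 2322 to 3837 CPM in Shank3 mice at 4 h, against 1636 to 2019 CPM, and 2369 to 4008 CPM in WT mice, against 1506 to 2169 CPM. The summed level of 9 oligodendrocyte markers was higher too, at 125 to 325 CPM in Shank3 mice at 4 h, against 71.6 to 124 CPM, and 118 to 271 CPM in WT mice, against 85.4 to 91.7 CPM. That of 9 microglia markers was lower, at 172 to 375 CPM in Shank3 mice, against 567 to 816 CPM, and 176 to 397 CPM in WT mice, against 583 to 885 CPM. P2ry12 and C1qb were at 0 counts in naive mice of cohort 2 in both genotypes. In naive WT mice of cohort 1, 7 of the 9 were at 0 while the sum averaged 1052 CPM, so it rests on few rows. Only 2 of the 9 were tested, and 1 was called lower at 4 h in each genotype, against 0 with the pair share as a term. The part of these markers in the Ntrk2 values was not tested, and in such bulk samples a change in the number of cells of a type and in the RNA per cell cannot be told apart.

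Inhba had the fewest counts of the 8 and was not called on the TMM scale in any swim comparison. It had 0.872, 2.76, 3.26, 4.33 and 5.61 CPM in Shank3 mice at 1 h, against 6.97, 7.59 and 8.09 CPM in naive mice, with 29 and 20 counts in all in these groups. These groups did not overlap, as 16.2% of all genes did not in this direction, and the log2 fold change of -1.11 ± 0.443 did not pass (adjusted p = 0.0822). It passed without 1 h replicate 1 (-1.34, adjusted p = 0.0466) and with an additive cohort term (-1.09, adjusted p = 0.0421). Inhba at 1 h averaged in WT mice 3.95 ± 1.16 CPM (n = 6), against 5.11 ± 3.11 CPM (n = 3), and at 4 h 5.43 ± 1.74 CPM (n = 6) in Shank3 mice, against 6.00 ± 3.86 CPM (n = 4), and 4.79 ± 1.36 CPM (n = 5) in WT mice, against 4.16 ± 0.310 CPM (n = 4). None of these differences passed the test on the TMM scale, while with library totals Inhba was called higher at 4 h, at 0.95 in Shank3 (adjusted p = 0.0162) and 0.90 in WT mice (adjusted p = 0.0383).

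**Figure D5:**
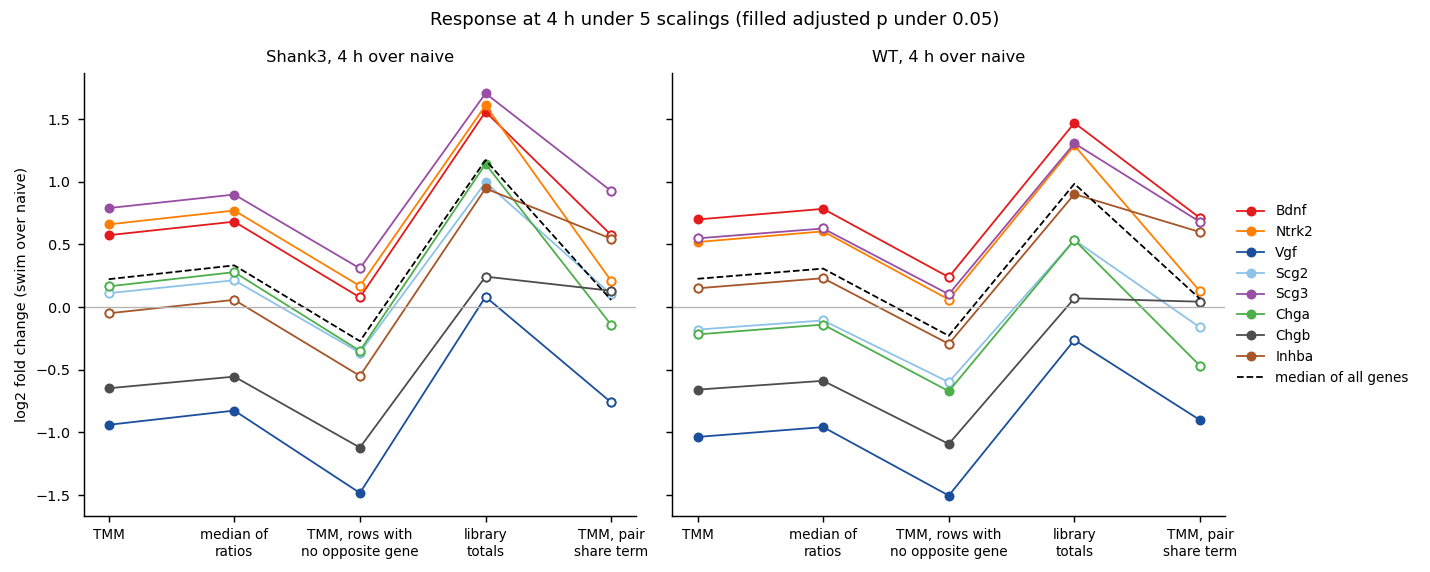
Log2 fold change at 4 h of the 8 genes under 5 ways of scaling, with the median of all genes as a dashed line and filled points for an adjusted p under 0.05. The order of the genes is nearly the same under the first 4 scalings, with Vgf and Chgb lowest and Scg3, Bdnf and Ntrk2 highest, while the zero point moves: Vgf runs from -1.48 to 0.082 in Shank3 and from -1.50 to -0.26 in WT mice.

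Under the first 4 of these scalings the order of the genes changed little while the zero moved, since they differ only in the factor of each library. With the pair share as a term the distances changed too, since Chgb moved to 0.13 in Shank3 and 0.043 in WT mice while Bdnf stood at 0.58 and 0.71. Rows with no exon opposite another gene, which are 6100 of the genes tested and include all of the 8 but Bdnf, had a median log2 fold change of 0.61 in Shank3 and 0.57 in WT mice at 4 h under TMM. Relative to these rows, Vgf stood at -1.54 in Shank3 and -1.60 in WT mice, Chgb at -1.25 and -1.22, Chga at -0.44 and -0.78, and Scg2 at -0.49 and -0.75. Scg3 stood at 0.19 and -0.02 and Ntrk2 at 0.06 and -0.05, near the middle of rows of their kind. At 1 h, relative to the same rows, Scg3 stood at 0.57 in Shank3 and 0.50 in WT mice and Vgf at -0.95 and -1.16.

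Shank3 and WT mice were compared directly in naive mice and at each time, which asks whether the mutated copy changes these factors or their response to the swim. None of the 8 genes passed edgeR's test in naive mice, at 1 h or at 4 h, where 0.00882%, 0% and 0.00882% of all genes passed, and DESeq2 and limma also called 0 of the 8 in each. The lowest unadjusted p among the 8 was that of Bdnf at 4 h (unadjusted p = 0.0189 and adjusted p = 0.9999 by edgeR), and it was the only one of the 8 under 0.05 in the 3 comparisons. The Shank3 libraries at 4 h had 17.0 to 22.2 CPM of Bdnf and the WT libraries 10.4 to 17.0 CPM, so that 1 WT library reached the lowest Shank3 value, and the log2 fold change was 0.45 ± 0.185. In naive mice of cohort 2 alone Bdnf differed by 0.58 ± 0.304, and in those of cohort 1 by -0.24 ± 0.373, and neither passed (adjusted p = 1 in both). Over both cohorts Inhba differed most in naive mice, with a log2 fold change of 0.48 ± 0.356, and at 1 h Vgf differed most, with -0.23 ± 0.165.

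The swim response did not differ between the genotypes for any of the 8 genes by the interaction of genotype and swim, which called 0% of all genes at 1 h and at 4 h, and DESeq2 and limma called 0 of the 8. The response of Vgf differed by 0.10 ± 0.253 at 4 h (Shank3 less WT, log2 scale), that of Chgb by 0.01 ± 0.321, that of Scg3 by 0.24 ± 0.403, that of Bdnf by -0.13 ± 0.353 and that of Ntrk2 by 0.14 ± 0.295. Each difference was smaller than its SE, which does not show that the genotypes responded alike. The largest differences were -0.69 ± 0.657 for Inhba at 1 h and 0.38 ± 0.292 for Chga at 4 h.

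Naive mice of cohort 2 were set against those of cohort 1 as a background for any comparison of 4 h with 1 h values. None of the 8 genes passed, against 10.7% of all genes, and the largest differences were 0.43 ± 0.284 for Scg3 (cohort 2 over cohort 1, log2 scale, adjusted p = 0.298), -0.37 ± 0.360 for Inhba and -0.27 ± 0.149 for Vgf (adjusted p = 0.211).

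Other genes of the same pathways were read from fixed lists, without the 8 genes. The counts of each list stand against all genes on the TMM scale, of which 32.7% rose and 29.4% fell in Shank3 and 29% rose and 26.9% fell in WT mice at 4 h, and 4.99% rose and 7.25% fell in Shank3 and 16.9% rose and 17.3% fell in WT mice at 1 h. Of all genes called at 4 h with library totals, 86% in Shank3 and 82.4% in WT mice were higher. With TMM on rows with no gene opposite 27.9% and 26.3% of those called were higher. In WT mice at 1 h these shares were 89.2% and 21.2%. Mostly rises or mostly falls in a list under these 2 scalings are thus usual for all genes. Of 25 genes of dense-core vesicle biogenesis and release, 24 were tested, of which 18 rose and 2 fell in Shank3 mice at 4 h and 16 rose and 1 fell in WT mice on the TMM scale. With library totals 23 rose and 0 fell in Shank3 and 23 rose and 1 fell in WT mice, and with TMM on rows with no gene opposite 12 rose and 2 fell, and 10 rose and 3 fell. Their median log2 fold change was 0.91 in Shank3 and 0.97 in WT mice, against 0.22 and 0.23 for all genes. For all tested rows with no gene opposite, such as those of Kif1a, Kif1b and Hid1, the median was 0.61 and 0.57. With the pair share as a term the median of the list was 0.34 in Shank3 and 0.17 in WT mice, and 0 and 2 of its genes were called higher. Kif1a, a motor that carries dense-core vesicles along axons, rose by 1.38 ± 0.236 in Shank3 (adjusted p = 9.41e-06) and 1.27 ± 0.240 in WT mice (adjusted p = 5.53e-05), and its relative Kif1b rose by 1.07 ± 0.203 in WT mice (adjusted p = 5.58e-05). Hid1, a protein of dense-core vesicle formation, rose by 2.196 ± 0.401 in Shank3 mice (adjusted p = 2.25e-05), while Baiap3, whose row lies opposite another gene, stood at -1.25 in Shank3 and -1.20 in WT mice. At 1 h, 1 of the 24 rose in Shank3 mice, Cadps2 (0.68 ± 0.228, adjusted p = 0.0456), and 9 rose in WT mice, led by Ica1 (1.87 ± 0.402, adjusted p = 0.0015), and none fell on the TMM scale. In WT mice 16 rose and 0 fell at 1 h with library totals, and 3 rose and 2 fell with TMM on rows with no gene opposite.

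Of 15 genes of prohormone processing and the granin family, 11 were tested. At 4 h 6 rose and 1 fell in Shank3 mice and 5 rose and 1 fell in WT mice, and at 1 h 1 rose and 1 fell in each genotype, on the TMM scale. With library totals 10 rose in Shank3 and 8 in WT mice at 4 h and 0 fell, and with TMM on rows with no gene opposite 4 rose and 3 fell in Shank3 and 1 rose and 3 fell in WT mice. Cpe, carboxypeptidase E, which trims peptide precursors in dense-core vesicles, rose by 1.29 ± 0.250 in WT mice at 4 h (adjusted p = 7.40e-05) and by 0.94 ± 0.301 at 1 h (adjusted p = 0.0169). Pcsk7, a proprotein convertase whose row lies opposite another gene, fell in all 4 swim comparisons, by 1.30 in Shank3 and 1.09 in WT mice at 4 h and by 1.06 and 0.87 at 1 h, and with library totals it was between -0.57 and -0.32. With the pair share as a term Pcsk7 at 4 h was 0.031 in Shank3 and 0.056 in WT mice, and in naive mice it was also lower in cohort 2 than in cohort 1 (-0.86, adjusted p = 0.0217). Ctsb and Gnas were higher at 4 h in Shank3 mice by 1.05 and 1.31, and both rows lie opposite another gene. Gnas was -0.052 with the pair share as a term. Cpd was called in Shank3 mice at 1 h on 56 counts over 5 libraries, against 2 counts over 3 naive libraries, which is too few for a fold.

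Of 17 neurotrophin ligands, receptors and processing genes, 9 were tested, of which 3 rose and 1 fell in Shank3 mice at 4 h and 3 rose and 3 fell in WT mice on the TMM scale. With library totals 7 rose in Shank3 and 5 in WT mice and 0 fell, and with TMM on rows with no gene opposite 1 rose and 3 fell in Shank3 and 1 rose and 4 fell in WT mice. Ntrk3, the receptor of neurotrophin 3, moved the other way from Ntrk2 on the TMM scale: it averaged 26.2 CPM in Shank3 mice at 4 h, against 48.6 CPM in naive mice, and 25.5 CPM in WT mice, against 43.8 CPM. Its log2 fold change was -0.86 ± 0.210 in Shank3 (adjusted p = 0.000675) and -0.77 ± 0.217 in WT mice (adjusted p = 0.00305), but 0.17 and 0.00 with library totals. At 1 h Ntrk3 fell by 0.75 ± 0.236 in Shank3 (adjusted p = 0.0362) and by 0.76 ± 0.233 in WT mice (adjusted p = 0.0127), where Sorcs3, a sorting receptor, also fell by 0.84 ± 0.296 (adjusted p = 0.0272). The sorting receptor Sorl1, opposite another gene, rose by 1.68 in Shank3 and 1.76 in WT mice at 4 h.

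Of 22 genes of the activin and TGF-beta family, 11 were tested, of which 2 rose and 2 fell in Shank3 mice at 4 h and 1 rose and 1 fell in WT mice on the TMM scale. With library totals 4 rose in Shank3 and 6 in WT mice and 0 fell, and with TMM on rows with no gene opposite 0 rose and 7 fell in Shank3 and 1 rose and 4 fell in WT mice, so the balance turned with the scaling. Smad3, a transcription factor that activin signals through, rose by 0.94 ± 0.198 in Shank3 (adjusted p = 0.000132) and 0.95 ± 0.206 in WT mice (adjusted p = 0.00027). Smad2, its partner, rose at 1 h by 0.73 ± 0.219 in Shank3 (adjusted p = 0.0313) and 0.90 ± 0.232 in WT mice (adjusted p = 0.00446), and it also differed between naive mice of cohort 2 and cohort 1 by 0.76 ± 0.171 (adjusted p = 0.00801). Of 21 neuropeptide precursors, 5 were tested, and at 4 h 3 rose in Shank3 mice and 1 in WT mice, against 5 and 3 with library totals and 1 in each with TMM on rows with no gene opposite. Cck, cholecystokinin, averaged 85.3 CPM in Shank3 mice at 4 h, against 27.1 CPM (1.67 ± 0.311, adjusted p = 2.92e-05), and Cbln2 rose in both genotypes (1.51 and 1.68) on 8 counts in all in the naive WT libraries.

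Of 27 other activity-regulated secreted or matrix factors, 25 had a row and 12 were tested, of which 4 rose and 3 fell at 4 h in each genotype on the TMM scale. With library totals 8 rose and 1 fell in Shank3 and 6 rose and 2 fell in WT mice, and with TMM on rows with no gene opposite 2 rose and 6 fell in Shank3 and 0 rose and 6 fell in WT mice. Vegfa, the angiogenic growth factor, stood at -0.99 ± 0.281 at 1 h (adjusted p = 0.00802) and at -1.24 ± 0.256 at 4 h (adjusted p = 0.000147) in WT mice, and at -0.38 and -0.50 with library totals. Sema7a rose by 1.12 ± 0.273 in Shank3 mice at 4 h (adjusted p = 0.000628). As a check of the stimulus, 24 activity-regulated transcription factors and related genes were read, of which 20 were tested. At 1 h 5 rose and 0 fell in Shank3 mice and 9 rose and 1 fell in WT mice, and at 4 h 16 rose and 2 fell in Shank3 mice and 14 rose and 1 fell in WT mice. With TMM on rows with no gene opposite 12 rose and 3 fell in Shank3 and 10 rose and 2 fell in WT mice at 4 h. Fos averaged 24.1 CPM in Shank3 mice at 1 h, against 2.46 CPM in naive mice, and 27.8 CPM in WT mice, against 3.02 CPM. In the genotype comparisons and the interactions none of the genes of these lists passed, while with the pair share as a term the lists kept at most 2 calls each at 4 h.

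The genes whose log2 CPM followed each of the 8 most closely over the 36 libraries, among 11322 genes whose log2 CPM averaged 1 or more, were found by Pearson r, as a description of libraries that share groups and scaling. Vgf was most like Sqstm1 (r = 0.927), Gsk3a (0.923) and 1500009C09Rik (0.922), and Chgb most like Gm49338 (0.932), Canx (0.928) and Gm16069 (0.926). Scg3 was most like Hsd17b12 (0.832), Zscan21 (0.814) and Slc25a25 (0.785), and Ntrk2 most like Rpl31 (0.843), Tyro3 (0.805) and Jakmip2 (0.795). The nearest genes of Scg2 (Tmeff1, 0.773), Bdnf (Eif4ebp2, 0.692), Chga (Tmem151a, 0.645) and Inhba (Myh7, 0.551) were less close. After the group means were taken out, the nearest were Gsk3a for Vgf (0.745), Gm14703 for Chgb (0.883), Zscan21 for Scg3 (0.737), Pdia3 for Scg2 (0.854), Ltn1 for Bdnf (0.645), Smarca4 for Chga (0.743) and Gm47854 for Inhba (0.627). Among the 8 genes themselves, Vgf and Chgb had r = 0.643 over the libraries and 0.0597 once group means were out, and Scg2 and Chga had r = 0.572 and 0.657.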

How the data were processed

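The 36 libraries held ribosome-bound RNA of pyramidal neurons from mouse cortex, and each came with a table of whole-number counts per gene as deposited by the authors. Per the submitters' processing notes, the build was mm10 and the tools were HISAT2 2.2.0, Salmon 1.4, StringTie 2.1.3, DESeq2, Trimmomatic 0.39 and FastQC, with no role or order. The strand setting of the counting is not stated there. Symbols were read for 55143 of 55470 identifiers, and positions for 55229 from GENCODE vM21.

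The fit used edgeR 4.0.16 under R 4.3.3 (filterByExpr, TMM, robust quasi-likelihood test, a mean for each of the 8 cells of genotype, treatment and cohort, 28 residual degrees of freedom), with Benjamini-Hochberg adjustment over the 11341 genes and a threshold of 0.05. The common biological coefficient of variation was 24.2%. DESeq2 1.42.0 and limma 3.58.1 were alternatives, as were other scalings, no filter, each library left out, a replicate block and the pair share as a term. Library totals as scaling were added after the data were seen. Percents of the Bdnf locus were compared with two-sided exact permutation tests (scipy 1.17.1), which measure the spread between libraries. Log2 CPM used a prior count of 2. The 8 genes and the lists were chosen with earlier results of these data known. Named were the 8 genes, the row opposite Bdnf, up to 3 genes of a list with the smallest p among those called, and the 3 genes most like each of the 8. The gene most like Ntrk2 after group means were taken out is not reported here. Markers and the Shank3 row were read as checks.

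The fit was tested on simulated counts for all 36 libraries, drawn from the mean level of each gene over them with 1 common spread. In the WT libraries at 4 h, 59, 62 and 64 of the 10310 genes tested were changed 1.5-, 2- and 3-fold. Against naive WT mice the fit recovered 8.47%, 37.1% and 82.8% of them. Far fewer genes changed there than the 56% called in the data, and the pair share was not simulated, so these rates need not hold for the data. Totals of 0.884 to 3.52 M counts limit what can be seen for genes with few counts. No 2 libraries of a group agreed within sampling noise (chi-square per degree of freedom from 1.54 to 105 in 68 pairs).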

Additional observations from a re-analysis of the deposited data

Results flagged for a closer look

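The levels of the 8 genes and of Gm45346 and the Bdnf percent were examined in each group of 4 or more libraries, and of these 60 sets of values 4 held a library far from the others, where chance gives about 1 in 20. Ntrk2 reached 58.2 CPM in WT replicate 5 at 4 h, with the next library at 45.3 and the lowest at 41.9 CPM. Vgf reached 71.2 CPM in Shank3 replicate 3 at 4 h, with the next at 52.6 and the lowest at 44.2 CPM. Vgf also reached 111.0 CPM in naive WT replicate 4 of cohort 2, with the next at 85.6 and the lowest at 81.7 CPM. Bdnf held 58.0% of the counts of Bdnf and its antisense row Gm45346 in a WT library at 1 h, with the next at 31.9% and the lowest at 23.8%.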

How the results depend on the processing

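Of 441 single-gene values under alternative settings, 359 kept their direction and side of the threshold, 31 lost a call, 11 gained one and 40 changed sign. The cause of the changes was not tested. With library totals, these turned positive: Chga in Shank3 mice at 1 h (0.22) and in WT mice at 1 h (0.49) and 4 h (0.54), Chgb in Shank3 mice at 1 h (0.23) and 4 h (0.24) and in WT mice at 1 h (0.35) and 4 h (0.070), Inhba in Shank3 mice at 4 h (0.95) and WT mice at 1 h (0.20), Scg2 in WT mice at 4 h (0.54) and Vgf in Shank3 mice at 4 h (0.082). With TMM on rows with no gene opposite, these turned negative: Bdnf (-0.35), Ntrk2 (-0.40) and Scg2 (-0.028) in WT mice at 1 h, Ntrk2 in Shank3 mice at 1 h (-0.15), Chga (-0.35) and Scg2 (-0.36) in Shank3 mice at 4 h, and Inhba in WT mice at 4 h (-0.29). With the pair share as a term, Chgb turned to 0.028 and 0.13 in Shank3 mice and to 0.13 and 0.043 in WT mice at 1 h and 4 h, Ntrk2 to -0.060 in Shank3 and -0.19 in WT mice at 1 h, and Chga to -0.14 and Inhba to 0.55 in Shank3 mice at 4 h. Adding Gm45346 turned Bdnf at 1 h to -0.33 in Shank3 and -0.30 in WT mice. Values near 0 changed sign as well: Inhba in Shank3 mice at 4 h with median-of-ratios factors (0.058), DESeq2 (0.070), no filter (0.052) and without the 3 libraries high in ribosomal RNA (0.14), Inhba in WT mice at 4 h with limma (-0.081), Bdnf in WT mice at 1 h with DESeq2 (-0.021), Ntrk2 in WT mice at 1 h with median-of-ratios factors (-0.041), DESeq2 (-0.039), limma (-0.046), the replicate block (-0.010) and without the ribosomal RNA libraries (-0.019), and Scg2 in Shank3 mice at 4 h without those libraries (-0.086).

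The number of the 8 genes called in Shank3 mice at 1 h, 1, became 0 without a filter, 3 with an additive cohort term and 0 with the replicate block. In Shank3 mice at 4 h the 5 became 2 with TMM on rows with no gene opposite and 0 with the pair share as a term. In WT mice at 1 h the 2 became 1 with TMM on rows with no gene opposite, limma, no filter or the replicate block. In WT mice at 4 h the 4 became 2 without a filter or with the replicate block and 1 with the pair share as a term. The replicate numbers did not pair the libraries throughout any comparison: of 8 comparisons with 28 shared numbers, 0 had every correlation of deviations over 0.1 (-0.252 to 0.735). Between the genotypes at 4 h, replicates 2 and 5 had 0.691 and 0.735, so this does not show that no libraries were paired.

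With single libraries left out, the number called ran from 0 to 2 in Shank3 mice at 1 h, 4 to 5 in Shank3 mice at 4 h, 0 to 2 in WT mice at 1 h and 1 to 4 in WT mice at 4 h, and stayed 0 between the genotypes. In Shank3 mice the log2 fold changes ran from -0.75 to -0.51 for Vgf, -0.013 to 0.18 for Ntrk2 and -1.34 to -0.92 for Inhba at 1 h, and from 0.43 to 0.71 for Bdnf, 0.58 to 1.06 for Scg3, -0.062 to 0.28 for Scg2 and -0.28 to 0.35 for Inhba at 4 h. In WT mice they ran from -0.70 to -0.49 for Vgf, 0.80 to 1.52 for Scg3, -0.17 to 0.71 for Bdnf, -0.13 to 0.087 for Ntrk2 and -0.38 to 0.043 for Chga at 1 h, and from 0.56 to 0.85 for Bdnf, 0.38 to 0.69 for Ntrk2, -0.76 to -0.57 for Chgb and -0.33 to 0.13 for Scg2 at 4 h.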
